A study of Mus musculus with 60 samples.

Results

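Activated CD8 T cells that lack Sh2b3 were compared at 24 h with and without an antibody that blocks interleukin-2 (IL-2). The comparison takes 9 of the 60 libraries of the series by their labels: the 4 knockout libraries with anti-IL-2 and the 5 knockout libraries of the same time without it. All 9 came from NOD mice, a strain prone to autoimmune diabetes, that were Sh2b3 -/- and carried the OT-I transgene, a T cell receptor for an ovalbumin peptide. CD8 T cells of the spleen were purified in the naive state by removing other cells. Both groups were then stimulated for 24 h by anti-CD3 fixed to the plate at 10 µg/mL and anti-CD28 in solution at 5 µg/mL, and 1 group also received anti-IL-2 at 10 µg/mL. The title of 1 library without antibody gives its genotype only as KO. Knockout cells before stimulation (0 h, 11 libraries) and wild-type cells of NOD mice with OT-I at 24 h, 4 with and 5 without the same dose of anti-IL-2, are given beside them. Whether the replicates of a group were separate mice or cultures is not stated in the labels. The p-values therefore reflect only how far these samples spread, which may be technical.

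IL-2 is a growth factor that activated T cells secrete and take up themselves. Its receptor joins an alpha, a beta and the common gamma chain, and the kinases JAK1 and JAK3 bound to it activate the transcription factor STAT5. STAT5 then raises the receptor's own alpha chain, survival and growth genes, the cytotoxic program of CD8 T cells, and the SOCS family proteins CIS and SOCS1 to SOCS3, which damp the signal. Sh2b3, also called LNK, is an adaptor protein that restrains cytokine receptor and JAK signalling.

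Total counts ran from 17.54 to 34.25 M reads with anti-IL-2 and from 17.82 to 35.48 M without, and mitochondrial transcripts took 1.57 to 2.07% and 1.26 to 1.96% of them. The numbers in the library names fall into runs, here called sets, which the labels do not describe. The antibody libraries are all of set D, which holds only antibody libraries. Those without antibody are of set B (replicates 4 and 5) and set C (replicates 1 to 3). Antibody and set therefore cannot be told apart, and differences are also given against set B and against set C. These 2 differences share the 4 antibody libraries and are not independent of each other. Levels are CPM (counts per M counts of the library) after TMM scaling, and differences are log2 ratios with their standard error (SE).

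With anti-IL-2, 721 of 13678 genes tested changed, 5.27% of them, at an adjusted p under 0.05 by edgeR's quasi-likelihood test. Of these, 324 were higher (2.37%) and 397 lower (2.9%), and the median difference over all genes was −0.01. Against set B 430 genes passed (3.14%), against set C 1559 (11.4%), against the mean of both sets 1110 (8.12%), and 252 passed against both in 1 direction (1.84%), 100 of them higher and 152 lower. Sets B and C, which differ in no labelled treatment, themselves differed in 443 genes (3.24%). In 653 of the 721 genes the groups did not overlap, and over all genes tested 761 (5.56%) lay wholly above and 680 (4.97%) wholly below. The number of calls depended on single libraries. It was 302, 381, 387 and 264 without anti-IL-2 replicates 1, 2, 3 and 4, and 1092 without replicate 4 of the libraries without antibody. The count against set B was 65 and 131 without its replicates 4 and 5, and that between sets B and C was 1 and 67 without replicates 4 and 3.

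The knockout was first checked at its own gene. Sh2b3 (ENSMUSG00000042594) stood at 21.8, 19.1, 14.8 and 13.4 CPM in anti-IL-2 replicates 1 to 4, and at 11.1, 11.9, 9.64, 11.4 and 11.8 CPM in replicates 1 to 5 without antibody. Every antibody library lay above every library without it, but the difference of 0.63 ± 0.18 did not pass (adjusted p = 0.061 by edgeR). In wild-type cells at 24 h without antibody it was at 72.0 ± 5.63 CPM (SD, n = 5), above all 9 knockout libraries. The counts are per gene and do not show which exons these remaining reads cover.

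The transcript of the blocked cytokine was low and variable. Il2 (ENSMUSG00000027720) was at 4.91, 10.97, 13.7 and 7.66 CPM with the antibody and at 8.37, 7.51, 9.53, 7.65 and 4.14 CPM without, and the groups overlapped (difference 0.33 ± 0.31, edgeR adjusted p = 0.62). Before stimulation it was at 0 CPM in the median knockout library. Of the other ligands of the family, Il15 was tested and did not pass (1.01 ± 1.041), while Il7, Il4, Il21 and Il9 were below the filter on low counts.

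Among the receptor chains of the family, Il2ra and Il4ra fell and Il21r rose, out of 7 tested. The shares of all genes tested were 2.9% lower and 2.37% higher. Il2ra (ENSMUSG00000026770), the alpha chain that gives the receptor its high affinity, was at 225, 186, 223 and 197 CPM with anti-IL-2 and at 455, 415, 472, 531 and 343 CPM without. All 4 antibody libraries were below all 5 others, a fall by 1.09 ± 0.12 (edgeR adjusted p = 2.7e-04). The fall was close in size against set B (−1.07 ± 0.14) and set C (−1.11 ± 0.13). At 0 h the median was 2.01 CPM, so the antibody libraries still lay far above the unstimulated cells. In bulk RNA, fewer cells that express a gene and less of its RNA per cell cannot be told apart.

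The shared signalling chains did not pass over the 5 libraries without antibody. Il2rb, the beta chain, was at 402 ± 30.1 CPM (SD, n = 4) with anti-IL-2 and at 483 ± 62.6 CPM (n = 5) without (−0.26 ± 0.10, adjusted p = 0.17). It was at −0.36 ± 0.10 against set C (adjusted p = 0.029) and at −0.10 ± 0.11 against set B (adjusted p = 0.74). Il2rg, the common gamma chain, was at 383 ± 30.03 and 393 ± 51.6 CPM (−0.04 ± 0.11, adjusted p = 0.90). Il4ra, the IL-4 receptor chain, fell by 0.62 ± 0.11 and kept its call whichever of the 9 libraries was left out. Il21r, the IL-21 receptor, rose by 0.45 ± 0.10 but lost its call without anti-IL-2 replicate 1, 3 or 4 (adjusted p = 0.0706 to 0.0842). Il7r, the IL-7 receptor that quiescent T cells carry, did not pass (−1.06 ± 0.38, adjusted p = 0.14), and ranged from 108 to 309 CPM with the antibody and from 161 to 720.1 CPM without.

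Of 18 JAK-STAT signalling genes, Jak2 rose and 1 fell, where 2.37% of all genes tested were called higher and 2.9% lower. With 1 member each way, the list is not set apart from these shares. The count of lower members was 1 without replicate 4 of the libraries without antibody and 0 without any other library. Jak2, a kinase of other cytokine receptors, was at 330.5, 336, 311 and 340.4 CPM with anti-IL-2 and at 212, 158, 217, 240.3 and 236 CPM without. Those groups did not overlap (0.63 ± 0.11, edgeR adjusted p = 0.0062). The difference was 0.75 ± 0.11 against set C (adjusted p = 0.0010) and 0.47 ± 0.13 against set B, where it did not pass (adjusted p = 0.059). Stat5a and Stat5b themselves differed by 0.02 ± 0.11 and −0.37 ± 0.15 and did not pass. They fall outside the rule by which genes are named and were chosen after their values were seen.

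The SOCS feedback genes split into 4 members that fell and 4 that did not pass, where 2.9% of all genes tested were called lower. Cish, Socs1, Socs2 and Socs3 fell, while the other members, Socs4 to Socs7, lay between −0.04 and 0.10. The 4 kept their calls in every fit that left out 1 of the 9 libraries, and all 4 passed against each set.

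Cish (ENSMUSG00000032578), which encodes the STAT5-induced inhibitor CIS, was at 9.69, 5.56, 12.5 and 6.75 CPM with anti-IL-2. Without antibody it was at 95.2, 87.9, 108, 117 and 67.6 CPM. Every antibody library lay far below the lowest one without, and the difference was −3.47 ± 0.24, or 11.1-fold (edgeR adjusted p = 1.4e-05). Against set B it was −3.42 ± 0.27 and against set C −3.51 ± 0.25. In unstimulated knockout cells Cish ranged from 1.46 to 8.56 CPM, with a median of 4.15 CPM, a range that overlaps the antibody libraries.

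Socs2 (ENSMUSG00000020027), another STAT5-induced SOCS gene, was at 0.5003, 0.733, 1.036 and 0 CPM with anti-IL-2 and at 12.2, 19.9, 13.4, 23.7 and 13.1 CPM without. It had the largest fall of the genes named here, by 4.80 ± 0.51, with antibody levels near those at 0 h (0 to 0.860 CPM). At such low counts the size of the ratio is uncertain. Socs1, which binds and inhibits JAKs, was at 48.5, 53.4, 41.8 and 38.0 CPM against 125, 176, 142, 124 and 137 CPM, a fall by 1.63 ± 0.14 to about the level of unstimulated cells (median 54.7 CPM). Socs3, known for restraining gp130 cytokine receptors, stood apart in its course. It was far higher before stimulation (median 244 CPM) than at 24 h, and it was at 10.8, 22.1, 12.7 and 12.2 CPM with anti-IL-2 and at 26.2, 51.4, 36.9, 26.9 and 38.8 CPM without (−1.31 ± 0.25, edgeR adjusted p = 0.0082).

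**Figure D1:**
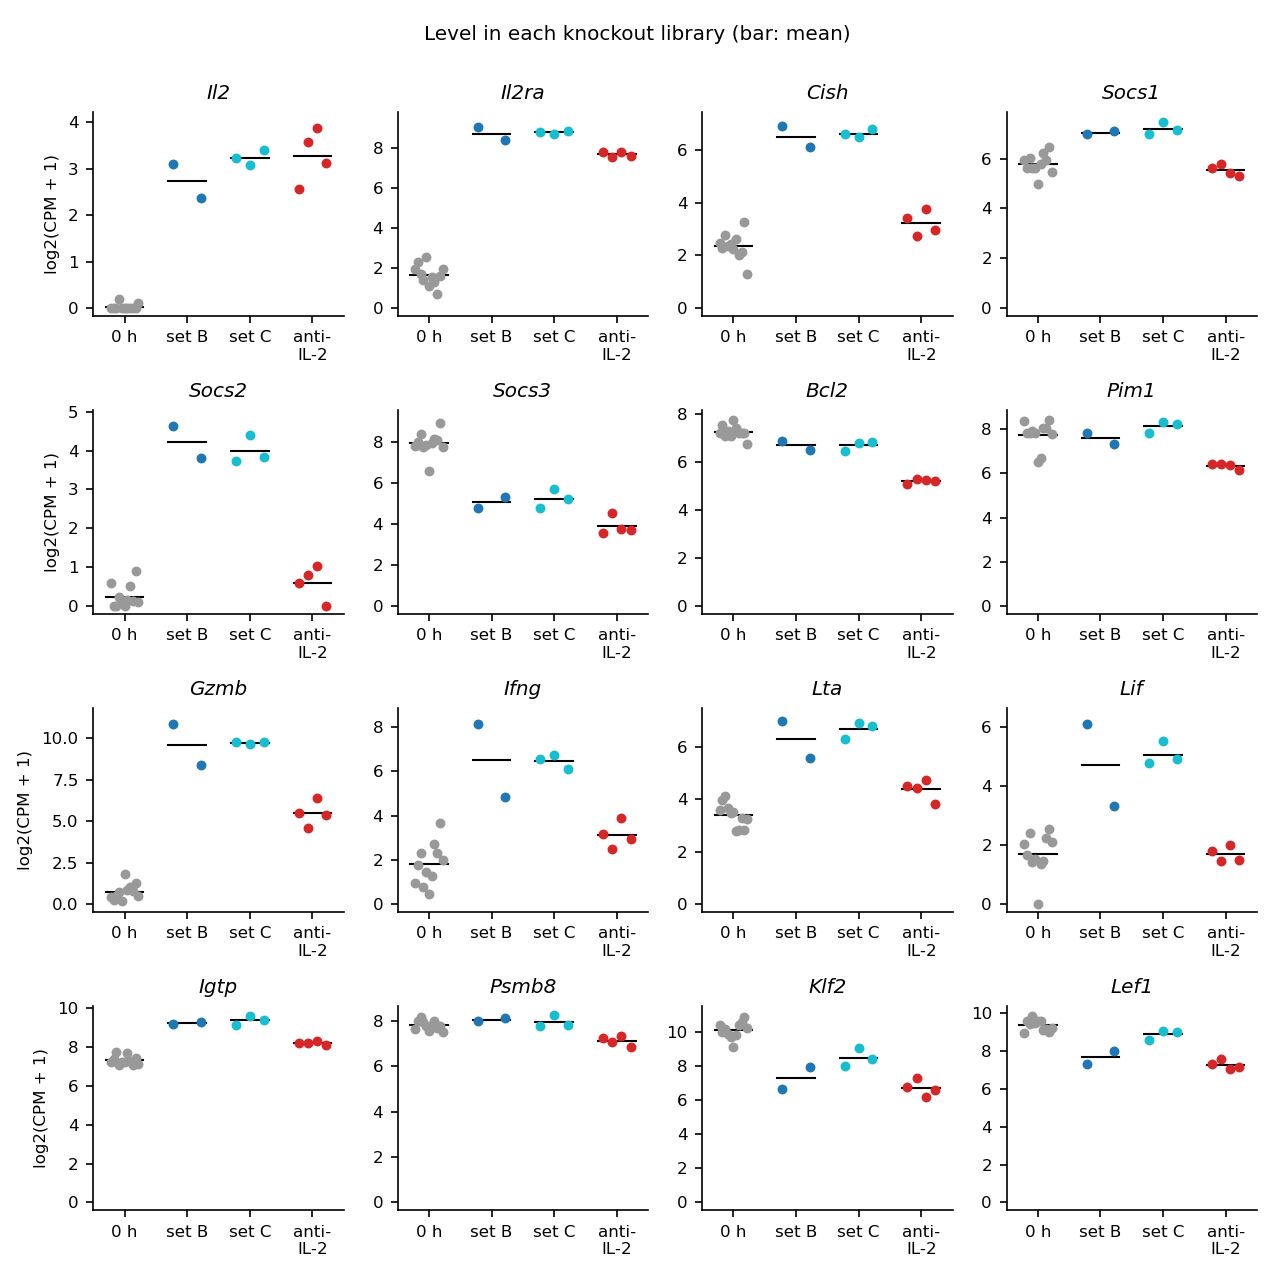
Level of 16 genes in each knockout library as log2(CPM + 1): before stimulation (0 h, 11 libraries), at 24 h without antibody in set B (2) and set C (3), and at 24 h with anti-IL-2 (4); bars are group means. The 4 anti-IL-2 points of Cish, Socs2, Gzmb and Bcl2 lie below all 5 points without antibody, those of Il2 overlap them, and those of Klf2 and Lef1 overlap set B.

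STAT5 binds the palindrome TTCNNNGAA, which reads the same on both strands. Promoters of 300 bases (250 before to 50 after the start, RefSeq, build GRCm38.p6) were at hand for 9629 of the 13678 genes tested, and 8.33% of these hold it, against 9.55% of all 27025 promoters in the table. Among genes called lower it is in 44 of 297 (14.8%) and among genes called higher in 13 of 240 (5.42%). Of the STAT5-induced targets called lower it is in 4 of 11, Cish, Gzmb, Lta and Socs3. These 4 are shown because they hold a match, which is in capitals, on the strand of the gene. A match describes the letters in this window and is not evidence of binding.
Cish, chr9:107296654-107296683, + strand: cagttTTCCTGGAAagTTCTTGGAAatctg
Socs3, chr11:117969502-117969530, − strand: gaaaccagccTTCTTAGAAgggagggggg
Lta, chr17:35205485-35205513, − strand: accatcactcTTCAGGGAAccaggcttcc
Lta, chr17:35205349-35205377, − strand: ccgactccctTTCCCAGAAcgcagtagtc
Gzmb, chr14:56262285-56262307, − strand: ggcaggagttTTCATAGAAagca
The Cish window holds 2 matches side by side, at 0 and 11 bases from the start, and Lta holds 2 within its promoter, 152 and 16 bases before it.

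Over the whole list of STAT5-induced targets, 15 of 34 tested fell and 1, Capg, rose, and the median was −0.65. The shares of all genes tested were 2.9% lower and 2.37% higher. Capg, an actin-capping protein, was at 157 CPM on average with anti-IL-2 and at 87.1 CPM without (0.85 ± 0.22, edgeR adjusted p = 0.041). It kept its call in 4 of the 9 fits that leave out a library, being lost without replicate 3 or any 1 anti-IL-2 library (adjusted p = 0.0524 to 0.142). Of the 15, 13 passed against both sets. The median was −0.75 against set B and −0.58 against set C, and 0.04 between these sets. The list shares the 4 SOCS genes and Il2ra with the groups above.

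The survival gene and the growth kinase of the list both fell. Bcl2 (ENSMUSG00000057329), which blocks the mitochondrial route of cell death, was at 33.2, 38.0, 37.4 and 35.7 CPM with anti-IL-2 and at 86.7, 110.1, 113, 116 and 90.1 CPM without. The groups did not overlap, a fall by 1.51 ± 0.12 (edgeR adjusted p = 3.3e-05) that was the same against set B (−1.51) and set C (−1.52). Unstimulated knockout cells had a median of 147 CPM, so the antibody libraries were below both other states. Pim1, a serine/threonine kinase that supports growth and survival, was at 85.0, 84.6, 81.3 and 69.4 CPM against 223, 317, 292, 221 and 160.4 CPM (−1.60 ± 0.17). The other 13 tested members of the BCL2 family did not pass, among them Bcl2l1 (−0.53 ± 0.16), the gene of BCL-XL, and Bcl2l11 (0.39 ± 0.13), the gene of the death promoter BIM.

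Several classical members of the list did not pass. Myc, the growth regulator, was at 385 ± 26.4 CPM (SD, n = 4) with anti-IL-2 and at 440 ± 52.1 CPM (n = 5) without (−0.19 ± 0.10, adjusted p = 0.30 by edgeR). Prf1, the pore-forming protein of cytotoxic granules, overlapped as well (−0.31 ± 0.15, adjusted p = 0.28). Prdm1, the gene of BLIMP-1, was below the filter on low counts, at 0 to 0.429 CPM with the antibody and 0 to 2.32 CPM without.

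Among cytotoxic granule genes, Gzmb and Nkg7 fell, 2 of 13 tested, where 2.9% of all genes tested were called lower. Gzmb (ENSMUSG00000015437), the granule protease granzyme B, was at 44.8, 23.3, 82.9 and 39.6 CPM with anti-IL-2. Without antibody it was at 855, 808, 879, 1824 and 329 CPM. The groups did not overlap, but the 2 libraries of set B hold both the highest and the lowest value without antibody. The fall was by 4.30 ± 0.50, or 19.7-fold (edgeR adjusted p = 8.5e-04), and it did not pass when fitted on set B and the antibody libraries alone (adjusted p = 0.0759). Gzmb was at 0.169 to 2.48 CPM before stimulation, below every antibody library. Nkg7, a granule membrane protein needed for degranulation, fell by 0.66 ± 0.12, and lost its call when a trend with transcript length was removed (adjusted p = 0.0542). It was at −0.55 ± 0.14 against set B, which did not pass (edgeR adjusted p = 0.051), and at −0.73 ± 0.13 against set C (adjusted p = 0.0024). Gzma, Gzmd to Gzmg and Gzmk were below the filter.

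Of 19 cytokine and chemokine genes tested, 7 fell and 1 rose, with a median of −0.45. The shares of all genes tested were 2.9% lower and 2.37% higher. Ifng (ENSMUSG00000055170), the effector cytokine interferon gamma, was at 8.10, 4.72, 13.9 and 6.80 CPM with anti-IL-2 and at 93.4, 105, 67.0, 282 and 27.6 CPM without. As for Gzmb, the groups did not overlap and replicates 4 and 5 of set B were the extremes. It fell by 3.79 ± 0.61 (edgeR adjusted p = 0.0048), and did not pass on set B alone (adjusted p = 0.116). Without antibody the SDs of these genes were 544 CPM around a mean of 939 CPM for Gzmb and 97.9 around 115 CPM for Ifng.

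Lif, a cytokine of the IL-6 family, had 2.46, 1.76, 3.005 and 1.82 CPM with anti-IL-2 and 26.2, 44.7, 29.3, 67.2 and 9.14 CPM without (−3.97 ± 0.47). Its antibody levels were those of unstimulated cells, where the median was 2.20 CPM. Lta, lymphotoxin alpha, was at 21.8, 20.3, 25.7 and 13.2 CPM against 76.7, 119.7, 109.8, 125 and 46.4 CPM (−2.23 ± 0.27). Its partner Ltb fell by 1.19 ± 0.19 and Osm, oncostatin M, by 1.82 ± 0.28. The groups of Lif, Lta, Ltb and Osm did not overlap, and these 4 genes kept their calls whichever library was left out. Csf1, the macrophage growth factor, was the member that rose, from a mean of 4.03 to 8.87 CPM (1.13 ± 0.30). It kept its call in 2 of the 9 fits that leave out a library, being lost without replicate 1, 2 or 3 or any 1 anti-IL-2 library (edgeR adjusted p = 0.0578 to 0.152), and was not called with set B alone (adjusted p = 0.167).

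Of 14 effector transcription factors tested, Zbtb32, Id2, Irf8 and Eomes fell and none rose. Over all genes tested 2.9% were called lower and 2.37% higher. Zbtb32, a zinc finger repressor of activated lymphocytes, was at 13.1, 9.15, 19.7 and 11.7 CPM with anti-IL-2 and at 51.0, 49.9, 51.3, 75.9 and 34.7 CPM without (−1.97 ± 0.24). Id2, an inhibitor of E proteins in effector cells, was at 28.97, 26.1, 32.2 and 34.3 CPM against 53.02, 56.2, 62.1, 78.4 and 79.98 CPM (−1.12 ± 0.15). In both genes the antibody libraries lay below all others, and the calls held in every fit that left out a library.

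The count of 4 was 2 without replicate 1 or 3 or without anti-IL-2 replicate 1, 2 or 4. Eomes fell by 1.13 ± 0.29 (edgeR adjusted p = 0.038) with overlapping groups, since replicate 5 of set B stood at 32.6 CPM, and the call held in 2 of the 9 fits, without replicate 4 or 5. Irf8 fell by 0.92 ± 0.23 and kept its call in 4 of the 9 fits, losing it without replicates 1 or 3 of the libraries without antibody or anti-IL-2 replicates 1, 2 or 4 (adjusted p = 0.0548 to 0.117). Against set B Irf8 was at −1.13 ± 0.28 (adjusted p = 0.046) and Eomes at −0.84 ± 0.35 (adjusted p = 0.25). Against set C Irf8 was at −0.75 ± 0.25 (adjusted p = 0.074) and Eomes at −1.30 ± 0.32 (adjusted p = 0.021). Only Zbtb32 and Id2 of the list passed against both sets. Tbx21, the gene of T-bet, was at 50.8, 24.4, 56.3 and 43.5 CPM with anti-IL-2 and at 89.9, 57.9, 60.6, 126 and 73.0 CPM without. Its groups did not overlap, but the difference of −0.90 ± 0.25 just missed the threshold (adjusted p = 0.056).

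Of 17 receptor genes for other cytokines tested, 4 were called lower and none higher, against 2.9% and 2.37% of all genes tested. The median of the 17 was −0.06 against set B, −0.56 against set C and −0.51 between sets B and C without antibody. Il12rb2, the signalling chain of the IL-12 receptor, was at 6.82, 5.02, 11.3 and 7.98 CPM with anti-IL-2 and at 24.8, 42.6, 37.3, 79.2 and 29.8 CPM without, a fall by 2.46 ± 0.33 with no overlap (edgeR adjusted p = 0.0011). Il10ra, the IL-10 receptor chain, was 2.82-fold lower, and both kept their calls in all 9 fits. These 2 were the only members that passed against both sets. Ifngr1, the interferon gamma receptor, and Il18rap, of the IL-18 receptor, fell by 0.90 ± 0.21 and 0.92 ± 0.25. Ifngr1 was at −0.58 ± 0.23 against set B (adjusted p = 0.21) and at −1.09 ± 0.21 against set C (adjusted p = 0.0048). Il18rap was at −1.23 ± 0.27 against set B (adjusted p = 0.026) and at −0.67 ± 0.25 against set C (adjusted p = 0.099). Ifngr1 lost its call without replicate 3 or without anti-IL-2 replicate 1, 3 or 4, and Il18rap in all fits but the one without replicate 3. The count of 4 was 2 without anti-IL-2 replicate 1, 3 or 4.

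Genes that IL-2 is known to repress differed in their calls with the set. Of 12 tested, none was called higher and 3 were called lower, Lef1 and Klf2 among them, against 2.9% lower of all genes tested. The median of the 12 was −0.82. That median was −1.21 against set C and −0.08 against set B, and it was −0.96 between sets B and C without antibody, where 4 of the 12 differed. None of the 12 passed against both sets. With set B alone 2 were higher and 0 lower, with set C alone 0 were higher and 8 lower, and against the mean of the sets 2 were called each way. Without replicate 2 of the libraries without antibody 1 was higher. The count of lower members was 0 without anti-IL-2 replicate 1, 3 or 4, 1 without replicate 2 or 3 and 7 without replicate 4 of the libraries without antibody.

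Lef1, a transcription factor of naive T cells, shows the pattern. It was at 159, 193, 133 and 141 CPM with anti-IL-2, at 390, 535 and 516 CPM in set C, and at 161 and 260 CPM in set B. Set B overlapped the antibody libraries and set C lay above both. The difference was −1.62 ± 0.17 against set C and −0.42 ± 0.19 against set B (edgeR adjusted p = 1.1e-04 and 0.27). Klf2, a transcription factor of T cell quiescence and trafficking, had the same order, with −1.80 against set C and −0.67 against set B. Both were highest in unstimulated cells (medians of 689 CPM for Lef1 and 1155 CPM for Klf2), and they lost their calls in 5 and 7 of the 9 fits.

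Bcl6, the repressor that STAT5 opposes, was at 30.7, 31.7, 22.8 and 29.9 CPM with anti-IL-2 and at 19.7, 27.2, 14.6, 10.0 and 15.3 CPM without. One library of set C reached into the antibody range, and the difference of 0.73 ± 0.23 did not pass (adjusted p = 0.090 by edgeR). It was 1.19 ± 0.26 against set B (adjusted p = 0.025), 0.49 ± 0.22 against set C (adjusted p = 0.18) and 0.84 against the mean of the sets (adjusted p = 0.016). Tcf7, the gene of the factor TCF-1, was at −0.75 ± 0.14 against set C and at 0.03 ± 0.16 against set B. The wider list of naive and quiescent T cell genes shares Lef1, Klf2, Tcf7 and others. Of its 23 members 6 were called lower and 2 higher, where 2.9% and 2.37% of all genes tested were. Against both sets 1 member passed in each direction. Btg1, an antiproliferative gene, was the one lower against both (−0.68 ± 0.11), and Myb, a factor of T cell self-renewal, the one higher. Myb was at 91.2, 83.7, 113 and 96.5 CPM with anti-IL-2 and at 55.3, 59.7, 60.9, 49.97 and 59.7 CPM without (0.75 ± 0.11, edgeR adjusted p = 0.0020). The other member called higher was Mxd4, a MAX partner that opposes MYC (0.66 ± 0.18). Myb kept its call in all 9 fits that leave out a library and Mxd4 in 2, being lost without replicate 1, 3 or 5 or any 1 anti-IL-2 library (edgeR adjusted p = 0.0554 to 0.17) and with the length trend removed (adjusted p = 0.0598). The count of lower members was 1 without anti-IL-2 replicate 1, 3 or 4, 2 and 3 without replicates 3 and 2 of the other group, and 13 without its replicate 4.

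**Figure D2:**
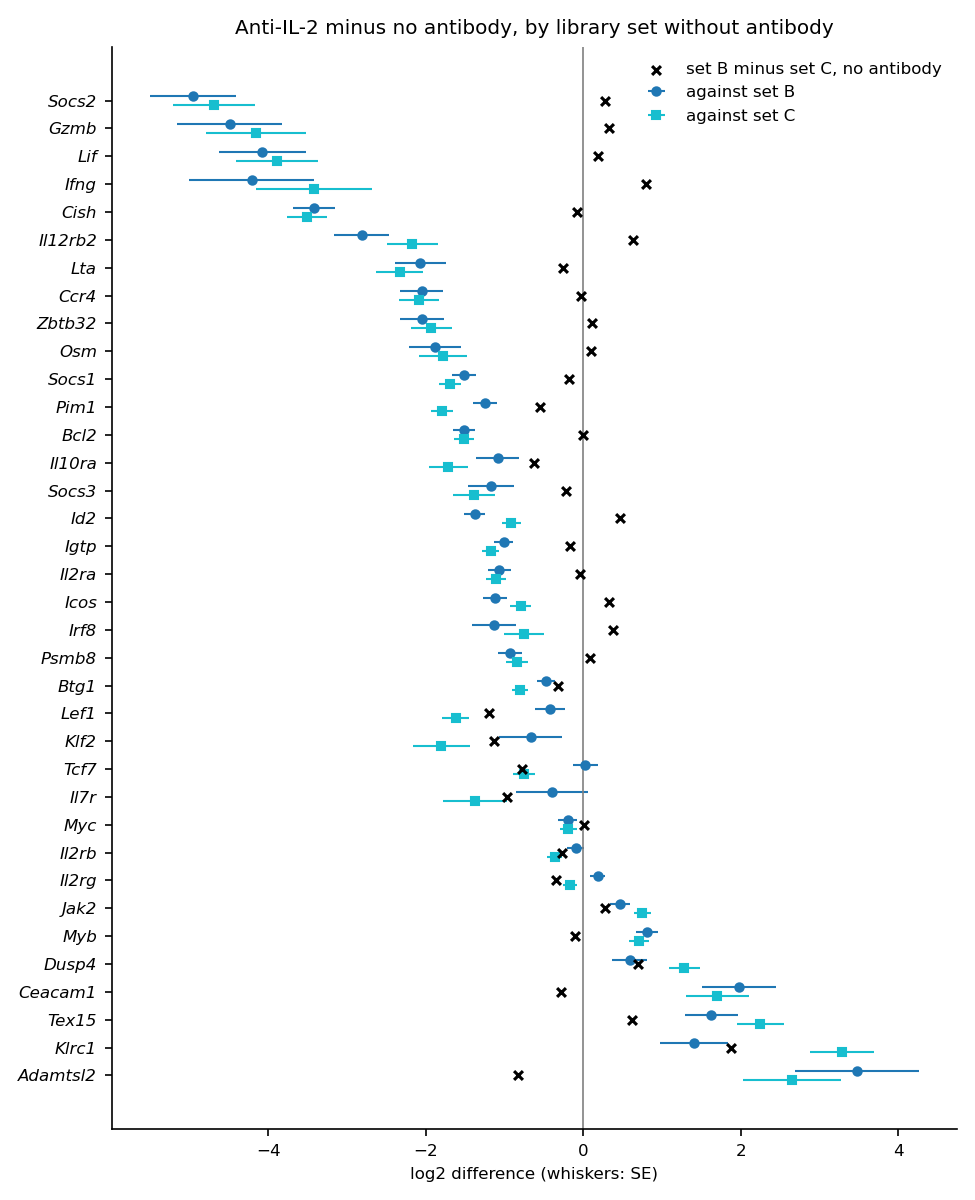
Log2 difference of 36 genes between the 4 anti-IL-2 libraries and the libraries without antibody of set B (circles) and set C (squares), with SE, and the difference between sets B and C without antibody (crosses). Cish, Socs1, Bcl2 and Il2ra sit at the same place against both sets, while Lef1, Klf2, Tcf7 and Il7r are further from 0 against set C and have crosses at −0.78 to −1.19.

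Interferon gamma response genes had the highest share of calls of the pathway lists. Of 29 tested, 21 fell (72.4%, against 2.9% of all genes tested) and none rose. All 29 differences were negative, and the median was −0.63. It was −0.57 against set B and −0.68 against set C, with −0.01 between the sets, and 12 of the members passed against both. The count was 12, 13, 12 and 10 without anti-IL-2 replicates 1, 2, 3 and 4, and 16 to 23 without any 1 of the others. The differences were smaller than those of Cish or Gzmb, and ranged among all 29 members from −1.11 to −0.12.

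Igtp (ENSMUSG00000078853), an interferon-induced GTPase, had the smallest adjusted p of the list. It was at 295, 297, 316.5 and 272 CPM with anti-IL-2 and at 550, 772, 678, 573 and 619 CPM without. The antibody libraries were below all others, a fall by 1.11 ± 0.11, or 2.16-fold (edgeR adjusted p = 1.2e-04), yet above the unstimulated range of 133 to 215 CPM. Gbp6, a guanylate-binding protein, fell by 0.91 ± 0.13. The immunoproteasome subunits Psmb8 and Psmb10, which shape the peptides shown on MHC class I, fell by 0.88 ± 0.13 and 0.82 ± 0.12. These 4 kept their calls in all 9 fits, and in none did the groups overlap.

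Type I interferon-stimulated genes had 13 of 35 called lower, none higher, and a median of −0.72, where 2.9% of all genes tested were called lower. Ly6a, the surface antigen Sca-1, was at 56.9, 50.2, 55.1 and 33.2 CPM with anti-IL-2 and at 118, 170, 98.4, 138 and 81.7 CPM without (−1.31 ± 0.21). Rtp4 fell by 1.60 ± 0.32, the nucleic acid sensor Zbp1 by 0.71 ± 0.15 and Trim30a by 0.59 ± 0.11, and in these 4 genes the groups did not overlap. Only 6 of the 13 passed against both sets. The count was 5, 10, 4 and 2 without anti-IL-2 replicates 1 to 4, 7 without replicate 3 of the libraries without antibody, and 8 with a transcript length trend removed. Rtp4 and Zbp1 lost their calls without anti-IL-2 replicate 4 (adjusted p = 0.0546 and 0.0642).

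Interferon-stimulated promoters often carry a pair of GAAA runs with 2 bases of any kind between them, searched on both strands, a core of the element that interferon regulatory factors bind. It is in 3.79% of tested genes with a promoter, in 39 of 297 called lower (13.1%) and in 2 of 240 called higher (0.833%). It is in 10 of 19 interferon gamma response genes and 15 of 27 type I genes with a promoter, and TTCNNNGAA in 8 of the 19. The genes shown are Igtp and Psmb8 for the latter and Irgm1, a GTPase related to Igtp, and Gbp2, a guanylate-binding protein, for the former. Irgm1 (−0.57 ± 0.09) and Gbp2 (−0.79 ± 0.17) lie outside the naming rule and were chosen after their values were seen. Capitals mark 1 match in each.
Igtp, chr11:58199501-58199529, + strand: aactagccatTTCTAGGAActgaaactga
Psmb8, chr17:34198088-34198116, + strand: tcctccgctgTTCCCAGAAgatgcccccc
Irgm1, chr11:48871431-48871460, − strand: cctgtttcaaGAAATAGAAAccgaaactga
Gbp2, chr3:142620594-142620623, + strand: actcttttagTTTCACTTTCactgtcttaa
The element in Irgm1 begins 30 bases before the start and that in Gbp2 59 bases before it.

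Few proliferation and metabolism genes passed over the 5 libraries without antibody, and more did against 1 set. Lists with 1 called member are not set apart from the 2.37% of all genes tested called higher and 2.9% called lower. Of 35 S phase genes none passed, 31 were positive and the median was 0.25. That median was 0.03 against set B, 0.43 against set C and 0.44 between the sets. With set C alone 7 S phase genes were higher, with set B alone 1 was lower, and without replicate 4 of the libraries without antibody 3 were higher. Mcm6, of the replicative helicase, and Cdc6, which loads it, were at 0.41 ± 0.13 and 0.49 ± 0.16 (adjusted p = 0.088 and 0.093 by edgeR). Of 30 G2 and M phase genes Ube2c, which marks mitotic proteins for destruction, fell by 1.16 ± 0.26, and lost its call without anti-IL-2 replicate 1, 2 or 4 (adjusted p = 0.0641 to 0.085). That list differed between the sets without antibody in 16 members, its median was −0.56 against set B and 0.22 against set C, and 18 members fell when only set B was used. Among 19 G1 genes Cdk6, the kinase partner of D cyclins, fell by 0.60 ± 0.15, and kept its call in 3 of the 9 fits.

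None of the 19 p53 targets, 21 amino acid uptake and ATF4 genes, 24 oxidative phosphorylation genes or 12 heat shock genes tested passed over the 5 libraries without antibody. Of the oxidative phosphorylation genes 22 of 24 were negative, 7 were lower with set B alone and 0 with set C alone. Cox5b, a subunit of cytochrome c oxidase, was at −0.84 ± 0.15 against set B (adjusted p = 0.0084 by edgeR) and at −0.21 ± 0.14 against set C. With set B alone 2 heat shock genes and 1 amino acid gene were higher, and with set C alone 1 p53 target was higher and 1 lower, and 1 amino acid gene higher and 3 lower. Over all genes tested 2.37% were called higher and 2.9% lower, and the single calls that follow do not set their lists apart. Of 30 MYC and ribosome biogenesis genes Utp20, of the small subunit processome, rose by 0.69 ± 0.14. Of 26 lipid synthesis genes Acaca, the first enzyme of fatty acid synthesis, rose by 0.61 ± 0.15. Both have long transcripts and lost their calls when a length trend was removed (adjusted p = 0.137 and 0.241). Utp20 also lost it without anti-IL-2 replicate 1 or 4, and Acaca kept it in 3 of the 9 fits that leave out a library. Slc2a3, a glucose transporter, fell by 0.60 ± 0.13, the only call among 20 glycolysis genes. It lost that call without anti-IL-2 replicate 1, 2 or 4 (adjusted p = 0.0646 to 0.0781), and was at −0.36 ± 0.14 against set B (adjusted p = 0.18) and at −0.74 ± 0.12 against set C (adjusted p = 0.0019).

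**Figure D3:**
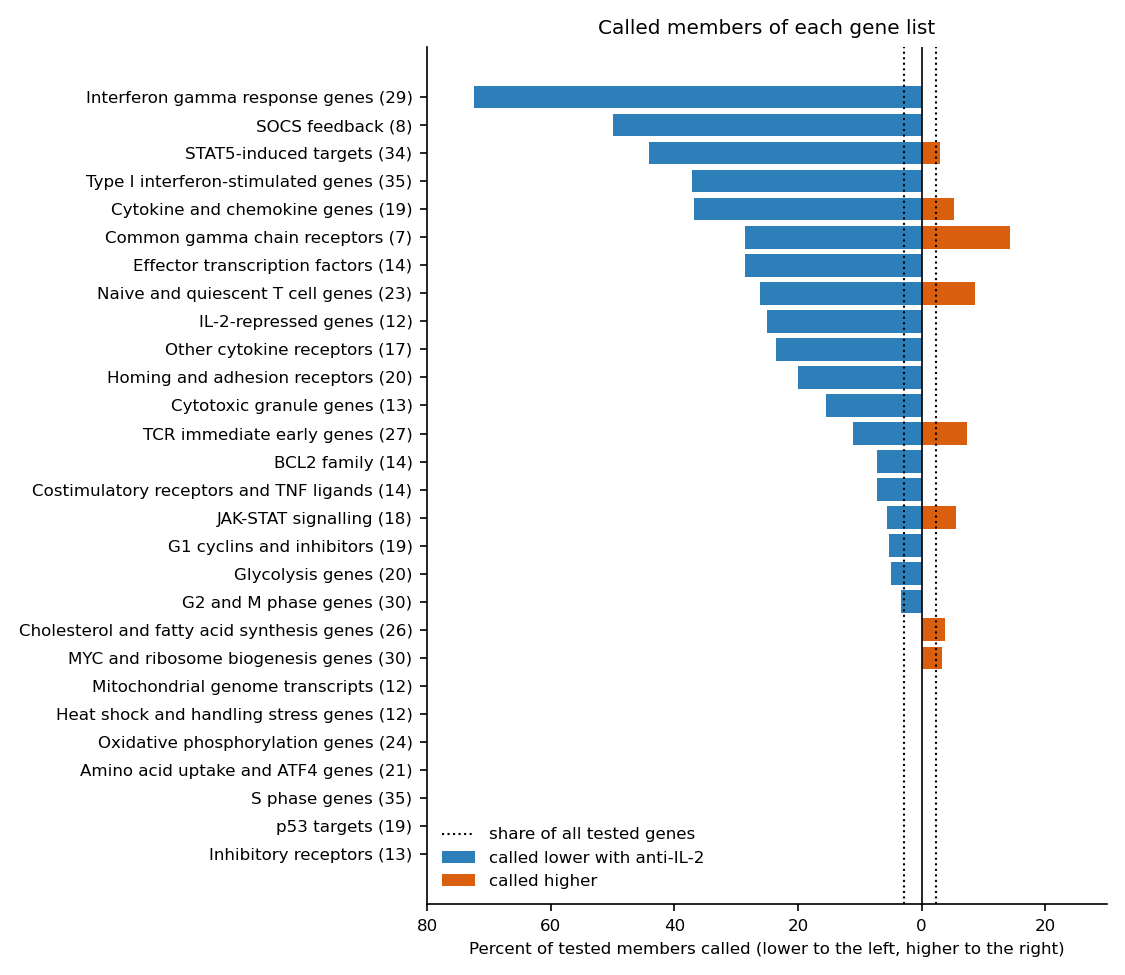
Percent of tested members called lower (left) or higher (right) with anti-IL-2 in each pathway list of at least 5 tested genes, with the number tested in brackets; dotted lines mark the shares over all tested genes, 2.9% lower and 2.37% higher. Interferon gamma response genes (21 of 29), SOCS feedback genes (4 of 8) and STAT5-induced targets (15 of 34) have the longest bars to the left, and the longest to the right is 1 of 7 receptor chains.

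Genes close to the T cell receptor showed mixed differences. Of 27 immediate early genes, Jun, Egr3 and Dusp5 fell and Dusp4 and Nr4a2 rose. The shares of all genes tested were 2.9% lower and 2.37% higher. Dusp4, a phosphatase that turns off MAP kinases, was at 75.4, 72.5, 69.9 and 81.5 CPM with anti-IL-2 and at 38.7, 18.5, 34.5, 54.7 and 44.8 CPM without, with no overlap (0.97 ± 0.22). It kept its call in 4 of the 9 fits, as did Egr3, and Nr4a2 in 3. Jun, a subunit of AP-1, fell by 0.87 ± 0.18, and lost its call without anti-IL-2 replicate 4 (adjusted p = 0.0586). None of the 27 passed against both sets, and none was called lower without anti-IL-2 replicate 4.

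No inhibitory receptor of 13 tested passed over the 5 libraries without antibody, but members passed against 1 set. Pdcd1, the gene of PD-1, was at 0.53 ± 0.16 (adjusted p = 0.072 by edgeR), at 0.72 ± 0.15 against set C (adjusted p = 0.0084) and at 0.29 ± 0.17 against set B (adjusted p = 0.44). Ctla4, a receptor that competes with CD28, was at −1.16 ± 0.34 (adjusted p = 0.065), at −1.81 ± 0.23 against set B (adjusted p = 0.0013) and at −0.48 ± 0.22 against set C (adjusted p = 0.18). These sets themselves differed in Ctla4 by 1.33 ± 0.25, set B being higher (adjusted p = 0.014). Tigit was at −0.95 ± 0.21 against set B (adjusted p = 0.026) and at −0.29 ± 0.19 against set C. Of 14 costimulatory genes Icos, a receptor of the CD28 family, fell by 0.93 ± 0.14 with no overlap. A single call does not set this list apart from the 2.9% of all genes tested called lower. Of 20 homing genes 4 fell, Ccr4, Selplg and Itgb7 among them, where 2.9% of all genes tested were called lower. Ccr4, a chemokine receptor of skin-homing T cells, was at 8.55, 5.51, 5.54 and 7.88 CPM with anti-IL-2 and at 23.8, 20.5, 42.7, 30.2 and 26.9 CPM without (−2.07 ± 0.24). It differed by as much against set B (−2.05) as against set C (−2.08). Selplg, the selectin ligand PSGL-1, fell by 0.81 ± 0.14 and kept its call in all 9 fits. It was at −0.59 ± 0.16 against set B, which did not pass (edgeR adjusted p = 0.056), and at −0.93 ± 0.14 against set C (adjusted p = 0.0011). Itgb7, an integrin chain of gut homing, fell by 0.64 ± 0.16 and kept its call in 3 of these fits. It was at −0.42 ± 0.17 against set B (adjusted p = 0.22) and at −0.77 ± 0.15 against set C (adjusted p = 0.0053). The count of lower homing genes was 2 without anti-IL-2 replicate 1, 3 or 4.

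The largest rises were of genes with few reads without antibody. Adamtsl2, a secreted matrix protein, was at 14.6, 15.9, 10.5 and 20.4 CPM with anti-IL-2 and at 4.13, 0.108, 2.88, 1.31 and 1.44 CPM without (2.92 ± 0.53, edgeR adjusted p = 0.0069). Ier5l rose by 2.45 ± 0.46, Gucy2e, a guanylate cyclase, and Tex15, known from germ cells, each by 1.97. In all of these the antibody libraries were above all others. Adamtsl2 and Tex15 passed against each set. Ier5l (2.23 ± 0.64, adjusted p = 0.081) and Gucy2e (1.46 ± 0.47, adjusted p = 0.11) did not pass against set B. Without the filter on low counts Adamtsl2 and Ier5l lost their calls (adjusted p = 0.0718 and 0.0507). Klrc1, the inhibitory lectin receptor NKG2A, was at 37.3, 29.9, 39.7 and 36.3 CPM against 6.05, 0.865, 3.67, 14.4 and 12.6 CPM (2.25 ± 0.49). Its level in set B lay between set C and the antibody libraries. The difference was 1.41 ± 0.43 against set B, which did not pass (adjusted p = 0.096), and 3.29 ± 0.41 against set C. Klrc1 lost its call without replicate 1 or without anti-IL-2 replicate 1, 3 or 4 (adjusted p = 0.0508 to 0.0635). It also lost it without the filter on low counts (adjusted p = 0.144).

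Ceacam1, an adhesion molecule with inhibitory signalling, rose by 1.81 ± 0.34 and Adgrg1, an adhesion G protein-coupled receptor, by 1.80 ± 0.45. Adgrg1 kept its call in 2 of the 9 fits, without replicate 1 or 4. It was at 2.61 ± 0.60 against set B (edgeR adjusted p = 0.030) and at 1.43 ± 0.47 against set C, which did not pass (adjusted p = 0.065). Zfp608, a zinc finger gene, was the remaining member of the largest falls, by 2.19 ± 0.42.

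The libraries carried the markers of CD8 T cells. Of 9 such markers Cd2, an adhesion receptor, fell by 1.19 ± 0.17, and Cd8b1, the beta chain of CD8, was at −0.61 ± 0.17 (adjusted p = 0.054 by edgeR). Their summed level was 2587 to 2927 CPM with anti-IL-2, 2661 to 3133 CPM in set B and 3313 to 3829 CPM in set C. Of the 5 tested markers of gamma delta T cells, the T cell receptor gamma constant genes Tcrg-C1, Tcrg-C2 and Tcrg-C4 fell by 3.04 ± 0.51, 2.89 ± 0.59 and 2.39 ± 0.32. Tcrg-C4 was at 2.365, 1.36, 2.23 and 2.30 CPM against 9.89, 14.3, 12.5, 5.30 and 11.8 CPM. The delta constant gene Trdc, which defines these cells, did not pass (−0.42 ± 0.16). The 3 gamma genes resemble one another in sequence, and how reads were split among them is not given in the sources used here. Nrp1, a marker of regulatory T cells, rose by 0.94 ± 0.25, but kept its call in 3 of the 9 fits that leave out a library (lost without replicate 1 or 3 or any 1 anti-IL-2 library, edgeR adjusted p = 0.0774 to 0.146) and lost it with the length trend removed (adjusted p = 0.057). Ikzf4 fell by 0.78 ± 0.16 and lost its call without anti-IL-2 replicate 1 (edgeR adjusted p = 0.0575). Tcrg-C2 lost its call without anti-IL-2 replicate 4 (edgeR adjusted p = 0.0513). Cd4 and Foxp3 were below the filter.

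Markers of other cells were low, and none of those tested was called over the 5 libraries without antibody. Tested were 8 of 8 B cell, 6 of 8 dendritic cell, 5 of 8 erythroid and platelet and 1 of 8 monocyte markers. No NK cell or neutrophil marker was tested. The untested ones were below the filter on low counts and could not be called. With set C alone 1 B cell, 1 dendritic cell and 2 erythroid and platelet markers were called lower. The summed level of 8 B cell markers was 21.6 to 27.3 CPM with anti-IL-2, 16.5 to 17.2 CPM in set B and 27.5 to 58.1 CPM in set C. For 8 erythroid and platelet markers it was 12.5 to 28.6, 7.20 to 11.3 and 37.3 to 160 CPM, so set C stood above both others. For 8 dendritic cell and MHC class II markers it was 55.6 to 72.9, 54.4 to 80.1 and 51.5 to 129 CPM, with Siglech at 0 in all 9 libraries, and for 8 monocyte markers 7.504 to 11.9, 4.86 to 5.52 and 5.29 to 9.76 CPM, with Cd14, C1qa and C1qb at 0. The 7 NK cell and 6 neutrophil markers summed to at most 2.18 and 3.46 CPM in any library, with Ly6g, Mpo, Elane and Csf3r at 0. The part of these cells in the differences was not tested.

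The same contrast in wild-type cells, between 4 libraries of set D and 5 of sets B and C, called 877 of 14778 genes (5.93%), 410 higher (2.77%) and 467 lower (3.16%). The difference between the genotypes was tested directly, and none of the 14778 genes passed (0%) by edgeR, where the smallest adjusted p was 1. An unadjusted p under 0.05 was found for 650 genes, a smaller share than the 0.05 that would fall there with no difference. DESeq2 called 1 gene, the predicted gene Gm10180 (−2.43, adjusted p = 0.00483). In simulated counts with 200 changed genes, the edgeR test recovered 37% of interactions of 1 log2 unit and 60% of those of 2. Interactions of both sizes, as well as smaller ones, could therefore have been missed. The simulated counts held no difference between library sets, unlike the data.

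Several genes were lower by more in the knockout by their point estimates. Lta, Bcl2, Ccr4 and Cish were chosen for this after their values were seen. Over all 14778 genes tested, 650 had an unadjusted p under 0.05 by edgeR and none passed the adjustment. With no difference at all a share of 0.05 would fall there, which is more than was seen. Lta fell by 2.23 in the knockout and was at −0.74 ± 0.27 in wild type, a difference of −1.49 ± 0.38 (unadjusted p = 9.6e-04 by edgeR, adjusted p = 1). For Bcl2 that difference was −0.65 ± 0.22, for Ccr4 −1.28 ± 0.43, and for Cish −1.13 ± 0.56 (unadjusted p = 0.0082, 0.0070 and 0.060). None of these passed the adjustment with both sets in the fit. With anti-IL-2 the genotypes had like levels of Cish, 8.64 ± 3.13 CPM in the knockout and 8.13 ± 1.11 CPM in wild type (SD, n = 4 each). Not every gene was alike then: in the same order Il2ra was at 208 and 215 CPM, but Id2 at 30.4 and 17.6 CPM. Without antibody Cish was at 95.2 ± 19.2 and 41.1 ± 28.1 CPM (n = 5 each). By set, wild type was at 23.5, 24.4 and 14.7 CPM in set C and at 67.5 and 75.3 CPM in set B, where the knockout means were 97.1 and 92.3 CPM, so that most of the gap lay in set C. With the libraries without antibody of set C alone, the difference between the genotypes passed for 16 genes by edgeR, 15 of them with the lower value in the knockout. Cish (−2.14 ± 0.31, adjusted p = 0.00336), Lta (−1.84 ± 0.29, adjusted p = 0.00916) and Ccr4 (−1.98 ± 0.35, adjusted p = 0.0227) were among them and Bcl2 was not (−0.87 ± 0.21, adjusted p = 0.114). With those of set B alone no gene passed, and Cish was at −0.33 ± 0.39 (adjusted p = 0.966).

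Other genes differed by nearly the same amount in both genotypes. Igtp fell by 1.11 ± 0.11 in the knockout and by 1.12 ± 0.10 in wild type, and Socs1 by 1.63 ± 0.14 and 1.67 ± 0.12. The differences between genotypes were 0.01 ± 0.14 for Igtp and 0.04 ± 0.17 for Socs1. In wild type 20 of the 29 interferon gamma response genes were called lower, with a median of −0.68. Of the STAT5-induced targets 9 were called lower there and 1 higher, with a median of −0.35.

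**Figure D4:**
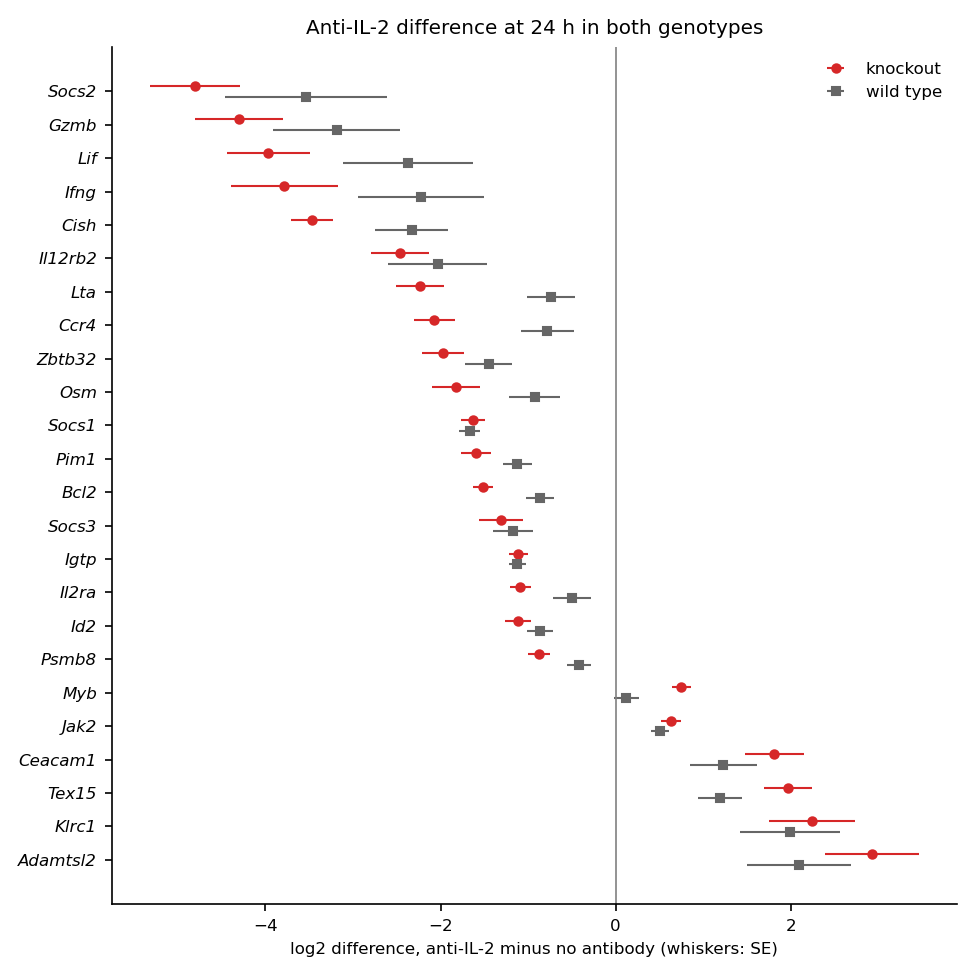
Log2 difference between anti-IL-2 and no antibody at 24 h, with SE, for 24 genes in knockout (circles) and wild-type cells (squares). The 2 marks of Socs1 and Igtp coincide within their errors, Lta, Ccr4 and Myb lie furthest apart relative to theirs, and no gene passed the test of the difference between genotypes.

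The calls were not spread evenly over transcript length. The median longest transcript was 3068.5 bases for all genes tested, 6755.5 bases for the 324 genes called higher and 2682 bases for the 397 called lower. With the genes split by length into 5 bins of nearly equal size, the longest bin held 210 of those called higher and 50 of those called lower, and the shortest held 7 and 94. The median difference ran with length against set B from −0.18 to 0.21, against set C from −0.05 to 0.06, and in wild type from −0.04 to 0.10. For set B minus set C, without any antibody, it ran from 0.12 to −0.14. That direction follows from the order of subtraction. Taken as set C minus set B it rises with length, as does the difference against set B. These differences share libraries and are not independent of each other.

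When the length trend of each library was removed, a step added after the data were seen, 457 genes were called, 140 higher and 317 lower. Of the genes called before, 136 of 324 higher and 277 of 397 lower remained. Of the lists, 16 of 34 STAT5-induced targets, 4 of 8 SOCS genes, 18 of 29 interferon gamma response genes and 8 of 35 type I genes were then called lower. The part of RNA or library quality in this trend was not tested.

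**Figure D5:**
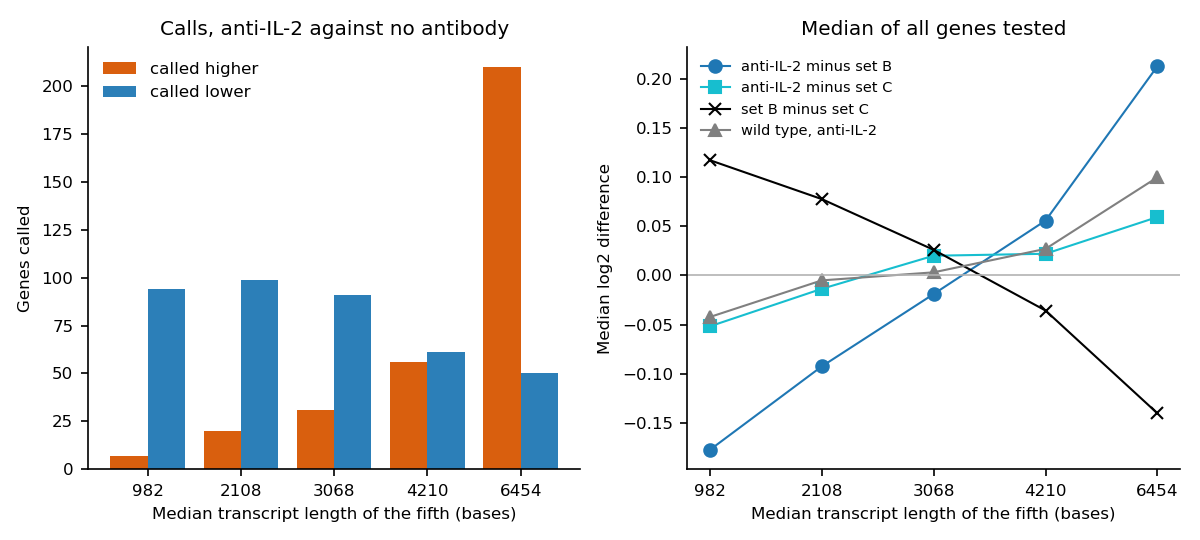
Left, number of genes called higher and lower with anti-IL-2 in 5 bins of the tested genes by longest transcript; right, median log2 difference of all tested genes in each bin for the knockout against set B and set C, for set B minus set C without antibody, and for wild type. The longest bin holds 210 of the 324 genes called higher. The line for set B minus set C slopes downward, a direction that follows from the order of subtraction.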

How the data were processed

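The authors deposited raw counts of reads per gene, 1 table of 55414 genes. FastQC 0.119.9, STAR 2.7.9a, SAMtools, Picard 2.42.2 and featureCounts 2.0.1 of Subread were used with GRCm39, per the submitters' processing notes. Whether counting used strand is not given in the sources used here, so overlapping and antisense genes are not separated. GENCODE M21 named 52081 genes, holding 99.6% of counts, and gave transcript lengths. It describes another build than the files, so the files' genes are given without coordinates, and promoter positions are RefSeq's, on GRCm38.p6. No 2 libraries of a group were duplicates (smallest chi-square per degree of freedom 10.1).

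For the 9 libraries the fit used edgeR 4.0.16 (R 4.3.3): filterByExpr with a minimum count of 10, TMM scaling, a robust quasi-likelihood F test, and Benjamini-Hochberg adjustment over all genes tested. Sets B and C were separate groups in a further fit, and 4 groups were fitted for the interaction. SEs are the difference divided by the root of F. Alternatives were DESeq2 size factors, no filter, the DESeq2 1.42.0 Wald test, a fold of at least 1.5, each set alone or their mean, and leaving out each library. Removal of the length trend was added later. Promoters came from RefSeq (GRCm38.p6).

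The libraries, the 38 gene lists and the rule for named genes were chosen with earlier results of these data known. Named are Sh2b3, Il2, a fixed set of IL-2 pathway and effector genes, the 8 largest rises and falls that passed, provided the level averaged 4 CPM or more and the direction held against both sets, the 5 largest interactions each way among any that passed (none did), and up to 4 members of each list by adjusted p, 149 in all, of which the text gives those of most weight. Predicted genes, pseudogenes, antigen receptor segments and sex-linked markers were left out of the largest changes. The fit was tested on simulated data: 67% of changes of 1 log2 unit and 78% of those of 2 were recovered among 13103 genes, with 5 false calls. These counts too held no difference between library sets, unlike the data. The number of false calls therefore does not cover calls that come from the sets. Some genes that the rule names are not reported here.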

Additional observations from a re-analysis of the deposited data

Results flagged for a closer look

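In groups of 4 or 5 libraries, 1 value stood far from the rest by Dixon's criterion in 10 of 298 groups of values, and chance alone gives about 1 in 20. With anti-IL-2, Socs3 was at 22.07 CPM in replicate 2, against 10.82 to 12.69 CPM in the others, which raises the group mean toward that without antibody. The same library had Tnfrsf18, a costimulatory receptor, at 31.05 CPM (others 41.84 to 43.57) and Tcrg-C4 at 1.357 CPM (others 2.228 to 2.365). Anti-IL-2 replicate 3 had Tigit, an inhibitory receptor, at 12.69 CPM (others 20.31 to 21.29) and the hemoglobin gene Hba-a1 at 13.26 CPM (others 3.447 to 4.608). Anti-IL-2 replicate 4 had Icos at 79.19 CPM (others 58.01 to 60.26) and Sesn2, a stress-induced gene, at 9.912 CPM (others 12.69 to 12.8). Without antibody, replicate 2 of set C had Prdm1 at 2.324 CPM (others 0 to 0.4501) and Tnfrsf25 at 30.97 CPM (others 13.96 to 16.24). Replicate 4 of set B had Irf8 at 566.2 CPM (others 296.1 to 343.9).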

How the results depend on the processing

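The number of genes called with anti-IL-2 in the knockout was 721, with 710 under DESeq2 size factors, 916 without the filter and 869 against set B alone. It was 1261 by the DESeq2 Wald test, 1110 against the mean of sets B and C, 1616 against set C alone, 444 with a fold of at least 1.5 (193 higher and 251 lower) and 457 with the length trend removed (140 higher and 317 lower, where 324 and 397 were called before). Leaving out 1 library gave 264 to 1092. Against set B the count of 430 became 852 without the filter and ran from 65 (without replicate 4) to 850 (without replicate 2), with 131 without replicate 5 and 176, 249 and 164 without anti-IL-2 replicates 1, 2 and 4. Against set C the count of 1559 became 935 with the fold minimum and ran from 919 (without anti-IL-2 replicate 1) to 2011, with 956 without replicate 3 and 1000 and 926 without anti-IL-2 replicates 3 and 4. Between sets B and C it was 443, with 976 without the filter and 1 (without replicate 4) to 873 (without replicate 1) when a library was left out, among them 67 and 219 without replicates 3 and 5 and 234 and 276 without anti-IL-2 replicates 1 and 4. The interaction had 0 calls, 1 by the DESeq2 Wald test (Gm10180), 1 against the mean of the sets (Gar1, −0.90 ± 0.145, adjusted p = 0.0276), 16 against set C alone, and 0 in each of the 18 fits that left out a library. The cause of these shifts was not tested. None of the 67 named genes called changed direction under the settings run. Of 67 named genes called, 67 remained under size factors and under the Wald test, 55 without the filter, 51 on set B alone, 65 on set C alone and 42 to 66 when a library was left out, and 41 kept their calls in all 9 of those fits. A set with 2 libraries without antibody limits what can be told apart against it. No paired analysis was possible because the labels give no replicate number shared between the groups.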

Other observations

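Other genes outside the lists also differed, and these families were chosen after their values were seen. Cytosolic ribosomal protein genes encode the proteins of the ribosome itself. Of 83 tested, 42 were called lower with anti-IL-2, against 2.9% of all genes tested, and none higher. The median was −0.30, with −0.34 against set B, −0.26 against set C and 0.05 between those sets. Of these genes 18 were called lower when the length trend was removed. In wild type 5 were called lower, with a median of −0.12, where 3.16% of all genes tested were called lower. Without anti-IL-2 replicate 1 or 4 the count in the knockout was 20, and without anti-IL-2 replicate 2 it was 26.

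The GIMAP genes encode GTPases of lymphocyte survival that sit in 1 cluster. Of 8 tested, 5 were called lower and none higher, with a median of −0.54, where 2.9% of all genes tested were called lower. In wild type 6 were called lower, with a median of −0.56, where 3.16% of all genes tested were. In the knockout 1 passed against both sets, and 1 was called when the length trend was removed, although the median then was −0.50. The count was 1 without anti-IL-2 replicate 1 or 4, 2 without its replicate 2 or 3 or replicate 5 of the other group, and 3 without replicate 2 of that group.

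Among called genes, 3 were at 0 counts in all 4 antibody libraries and 14 at 0 in all 5 libraries without antibody. Such genes passed the filter on low counts only through the other group, so the filter used the same values as the test. How many of all genes tested were at 0 in a whole group is not given here. No conclusion is therefore drawn from 14 against 3. Of the called genes, 42 had a mean under 4 CPM.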
